A study of Rattus norvegicus with 6 samples.

Results

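The genes described here encode parts of the Z-disc, the titin filament and the stretch-sensing machinery of the heart muscle cell: Ttn, Nebl, Actn2, Ldb3, Csrp3, Tcap, Myoz2, Mybpc3, Ankrd1 and Xirp2. Each was looked for among the probes of a rat expression array through the transcript accession that the probe carries, and the brightest probe of a gene stood for it. Of the 10 genes, 7 were found in this way among the 16575 genes that the array named. Ttn, Nebl and Myoz2 had no probe with a matching accession and are not analysed here.

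The cells were neonatal rat ventricular cardiomyocytes (NRVCs), primary cells isolated from the pooled ventricles of 8 to 10 Sprague-Dawley rats that were 1 to 2 days old. The control group (n = 3) was kept in control medium and the C3a group (n = 3) received recombinant C3a, the small fragment released from complement protein C3, at 0.5 µg/ml for 12 h. Neither group carried a genetic change, and the methods give a short serum starvation before stimulation. The comparison addresses whether gene expression in these cultures differs with C3a. RNA from whole cultures cannot assign a difference to the cardiomyocytes themselves. The records number the samples 1 to 3 in each group without saying whether they came from separate isolations, so p-values measure only the spread between these samples, which may be technical.

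The Z-disc is the border of the sarcomere, where actin filaments of opposite direction are cross-linked by alpha-actinin and where titin, the elastic protein that runs to the middle of the sarcomere, is anchored. LIM-domain and PDZ-domain proteins dock onto this lattice and hold it together under load. Several of them, with ankyrin-repeat proteins bound to the spring region of titin, are known to respond to stretch. Mutations in some of the genes described here are known causes of cardiomyopathy.

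The promoters of Actn2, Mybpc3 and Xirp2 are shown because these genes had lower mean levels with C3a, and that of Ldb3 because it had a slightly higher one. Each line gives the 250 bases before the annotated start in RefSeq assembly GRCr8, read 5′ to 3′ on the strand of the gene, with motif matches in capitals.
Actn2: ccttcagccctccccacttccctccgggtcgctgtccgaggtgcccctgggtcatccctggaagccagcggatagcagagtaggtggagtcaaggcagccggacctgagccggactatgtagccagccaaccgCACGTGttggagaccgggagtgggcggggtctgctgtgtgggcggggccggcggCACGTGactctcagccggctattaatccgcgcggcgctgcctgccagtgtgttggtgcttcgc
Mybpc3: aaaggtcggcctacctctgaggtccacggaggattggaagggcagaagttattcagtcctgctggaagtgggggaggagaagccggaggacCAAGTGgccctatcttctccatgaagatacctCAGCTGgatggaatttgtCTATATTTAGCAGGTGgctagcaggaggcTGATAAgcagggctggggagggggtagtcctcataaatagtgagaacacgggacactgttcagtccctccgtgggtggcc
Xirp2: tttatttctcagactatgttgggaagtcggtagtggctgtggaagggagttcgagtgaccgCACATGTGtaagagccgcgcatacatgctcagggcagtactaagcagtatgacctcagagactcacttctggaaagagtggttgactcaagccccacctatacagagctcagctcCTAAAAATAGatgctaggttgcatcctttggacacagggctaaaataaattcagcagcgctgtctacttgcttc
Ldb3: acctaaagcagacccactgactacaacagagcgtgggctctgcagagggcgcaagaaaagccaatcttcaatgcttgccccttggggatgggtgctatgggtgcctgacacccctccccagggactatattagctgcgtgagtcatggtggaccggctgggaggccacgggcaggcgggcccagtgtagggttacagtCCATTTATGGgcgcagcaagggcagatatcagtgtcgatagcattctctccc
The stretches lie at chr17:62834805-62835054 on the plus strand (Actn2), chr3:97550811-97551060 on the plus strand (Mybpc3), chr3:72533936-72534185 on the plus strand (Xirp2) and chr16:9924680-9924929 on the minus strand (Ldb3). The sequence table held no entry for Csrp3, Tcap or Ankrd1.

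Both strands were searched for the muscle motif MCAT, spelled CATTCC. The motif of GATA factors was searched as AGATAA or as TGATAA. The E-box, bound by helix-loop-helix factors, was searched as CANNTG. The box of the TATA-binding protein was searched as TATAAA, and the CArG box of serum response factor and the MEF2 box were searched by their usual patterns. MEF2 boxes begin 109 bases before the start of Mybpc3 and 74 bases before that of Xirp2, and 3.07% of 27457 rat promoters of this length hold one. The Mybpc3 match runs directly into an E-box at 99 bases, and a GATA match follows at 80 bases. In Actn2 the matches are E-boxes, at 117 and 63 bases, and in Xirp2 the E-boxes at 189 and 187 bases overlap. E-boxes occur in 65.2% of rat promoters and GATA matches in 16.6%. The match in Ldb3 is a CArG box at 52 bases, a motif in 1.50% of rat promoters. Matches to the MCAT and TATA motifs, present in 11.8% and 13.1% of rat promoters, are in none of these 4 windows. These are matches of letters only, and nothing about binding was measured.

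All 7 genes gave signals well above background on all 6 arrays. Levels below are log2 signals relative to the 75th percentile of all probes on the same array, so that 0 is the brightness of that percentile. Between 38.6% and 57.3% of probes were well above background, lowest on control 1, whose median local background was 47 against 23 to 24 on the others. All 6 samples were hybridised on 1 slide and scanned in 1 session, with the controls on one side of the slide, so side and treatment cannot be told apart. The number of arrays limits the precision of every difference.

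The cultures carried the markers of cardiomyocytes. All 10 markers of this cell type were well above background on every array, and their summed linear signal was 4333 to 5592 times the 75th percentile in controls and 5358 to 6081 times with C3a. Of the markers with a probe, 7 of 10 for fibroblasts, 5 of 7 for endothelial cells, 4 of 6 for smooth muscle, 2 of 8 for macrophages and 1 of 7 for skeletal muscle were well above background throughout. Their summed signals were 98.8 to 112 in controls and 97.7 to 114 with C3a for fibroblasts, 33.3 to 46.0 and 42.3 to 53.5 for endothelial cells, 18.8 to 24.6 and 22.3 to 25.5 for smooth muscle, 5.88 to 7.38 and 5.81 to 6.32 for macrophages, and 0.939 to 1.47 and 1.10 to 1.36 for skeletal muscle. Counting markers well above background on all arrays of a group, 8 of 10 for cardiomyocytes had a difference above 0 (median 0.145). It was 2 of 10 for fibroblasts (median -0.043), 4 of 5 for endothelial cells (0.139) and 4 of 6 for smooth muscle (0.067). For macrophages it was 2 of 4 (0.063) and for skeletal muscle 1 of 3 (-0.094), where 60.6% of all genes were above 0. Cldn5, C1qa, Myh2, Tnnt3 and Myod1, defining genes of endothelial cells, macrophages and skeletal muscle, were not well above background on any array. The part of other cell types in the results below was not tested, and in RNA from whole cultures fewer cells of a type and less RNA per cell cannot be told apart.

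None of the 7 genes differed between C3a and control beyond the spread of the replicates after adjustment. Actn2, Mybpc3, Ankrd1 and Xirp2 had lower mean levels with C3a (log2 differences of -0.67 to -0.18). Ldb3, Csrp3 and Tcap had higher means (0.11 to 0.22), a sign that turned for Ldb3 and Csrp3 without normalization, with quantile normalization and with spike-in scaling, and for Tcap with the first and last of these. Adjusted p-values (limma, Benjamini-Hochberg over 23438 probes) lay between 0.743 and 0.808 for the 7 genes, and 0 probes passed 0.05 in the whole table, a share of 0%. Without adjustment 581 probes (2.48%) were lower and 783 (3.34%) were higher at 0.05, and by the plain test of the methods 356 and 752. With 3 arrays against 3 the exact two-sided permutation test cannot give a p below 0.1.

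**Figure D1:**
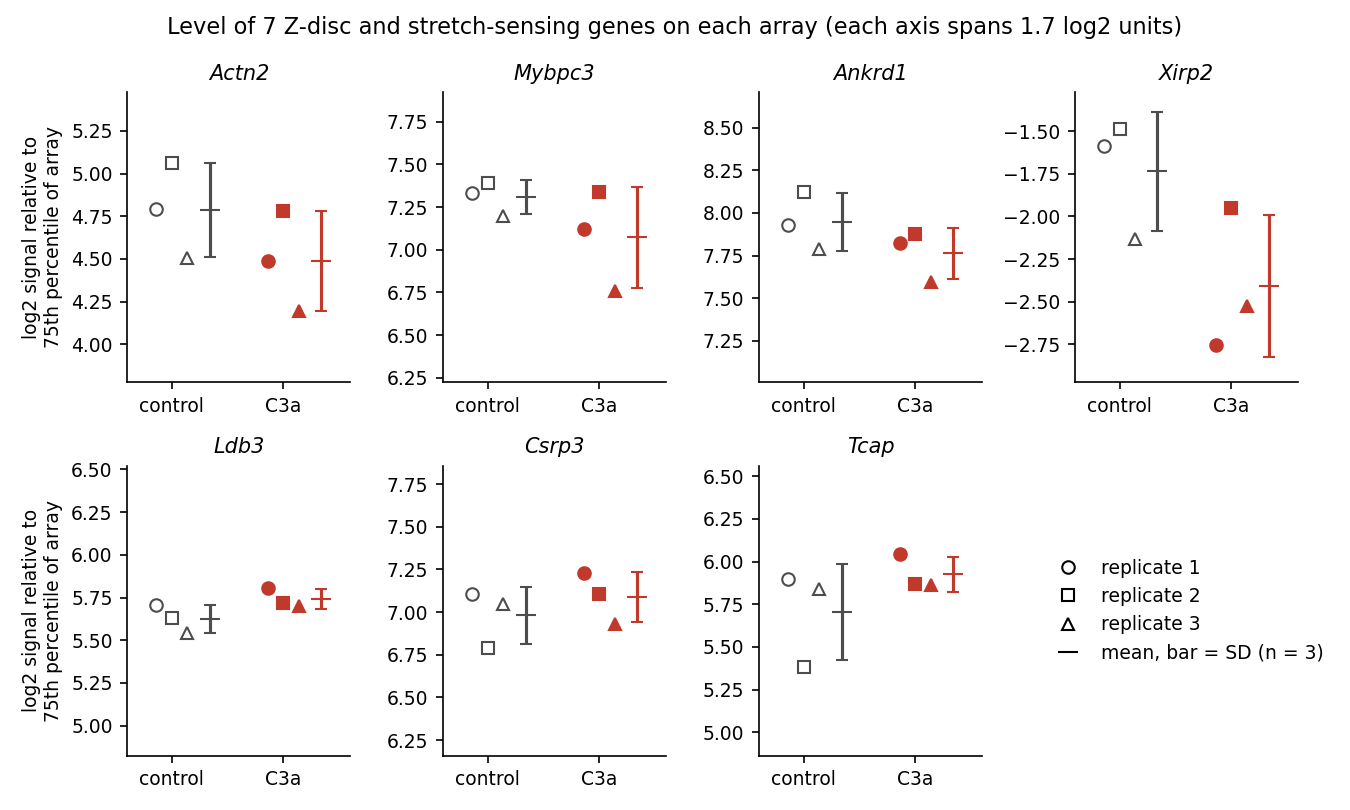
Log2 level of the 7 measured genes (vertical axis, against the array's own 75th percentile of signal) on each of the 3 control and 3 C3a arrays, with the group mean and SD. The groups overlap in every gene, and Xirp2 is the only gene of the 7 below 0.

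Actn2 encodes alpha-actinin-2, the protein that cross-links actin filaments at the Z-disc. Its log2 level was 4.80, 5.06 and 4.51 in controls 1 to 3 and 4.49, 4.78 and 4.20 in C3a samples 1 to 3. The 2 highest values were controls and the lowest was C3a 3, while control 3 lay below C3a 2, so the groups overlapped. The means were 4.79 ± 0.28 and 4.49 ± 0.29 (SD, n = 3), a difference of -0.30 (SE 0.19, 95% interval -0.76 to 0.15) with an adjusted p of 0.743 in limma and an exact permutation p of 0.2. The C3a value was lower by nearly the same amount within each pair of equal number, -0.31, -0.28 and -0.31. With the replicate number as a block the unadjusted p was 0.0149 against 0.163 without it, and the adjusted p was 0.268 (limma).

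Ldb3 encodes cypher (ZASP), a PDZ and LIM protein that binds alpha-actinin at the Z-disc. The brighter of its probes read 5.71, 5.63 and 5.54 in controls and 5.81, 5.72 and 5.70 with C3a. Control 1 lay between the C3a values. The difference of means was 0.12 (SE 0.095, 95% interval -0.11 to 0.34; limma adjusted p = 0.753, exact permutation p = 0.2), and it turned to -0.21 without normalization, to -0.33 with spike-in scaling and to -0.0046 with quantile normalization. A second, dimmer Ldb3 probe, designed to another transcript record, read 3.98, 3.79 and 3.82 in controls and 3.83, 3.96 and 3.60 with C3a, with a difference of -0.071 (SE 0.12), so the probes disagreed in sign. Subtracting the dimmer from the brighter probe on each array cancels the scaling and gave 1.72, 1.84 and 1.72 in controls and 1.98, 1.76 and 2.10 with C3a. C3a 1 and 3 were the highest of these and C3a 2 fell among the controls, and the exact permutation p for the difference of 0.19 was 0.2.

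Csrp3 encodes muscle LIM protein, a Z-disc protein with a proposed role as a stretch sensor. On the log2 scale it read 7.11, 6.79 and 7.05 in controls and 7.23, 7.11 and 6.93 with C3a. The lowest value was control 2 and the highest C3a 1, with the others interleaved. The difference of means was 0.11 (SE 0.13, 95% interval -0.19 to 0.41; limma adjusted p = 0.808), and it turned to -0.22 without normalization, -0.34 with spike-in scaling, -0.037 with quantile normalization and -0.040 with loess. A dimmer Csrp3 probe gave 0.15 (SE 0.11), the same sign.

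Tcap encodes telethonin, the cap that joins the ends of titin molecules in the Z-disc and binds muscle LIM protein. Its log2 level was 5.90, 5.38 and 5.84 in controls and 6.05, 5.87 and 5.86 with C3a. Control 2 stood apart as the lowest, and the other 5 values lay within 5.84 to 6.05. The difference was 0.22 (SE 0.16, 95% interval -0.15 to 0.59; limma adjusted p = 0.743), and it turned to -0.11 without normalization and to -0.23 with spike-in scaling. Without control 2 it was 0.058. The same array gave the lowest control value of Csrp3, whose difference without it was 0.013. It also gave the lowest summed signal of the cardiomyocyte, endothelial, smooth muscle and skeletal muscle markers. For the fibroblast and macrophage markers it was the lowest of the controls.

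Mybpc3 encodes cardiac myosin-binding protein C, which sits on the thick filament and also touches actin, outside the Z-disc itself. Levels were 7.34, 7.39 and 7.20 in controls and 7.12, 7.34 and 6.76 with C3a. C3a 3 was the lowest, and C3a 2 reached the level of control 1. The means were 7.31 ± 0.099 and 7.07 ± 0.29 (SD, n = 3), a difference of -0.24 (SE 0.16, 95% interval -0.61 to 0.14; limma adjusted p = 0.743, exact permutation p = 0.3). Without C3a 3 the difference was -0.078.

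Ankrd1 encodes cardiac ankyrin repeat protein, which binds titin near the Z-disc, also enters the nucleus, and is known for its rise under stretch and load. Its log2 level was 7.93, 8.12 and 7.79 in controls and 7.83, 7.87 and 7.59 with C3a. Controls 1 and 2 were the highest and C3a 3 the lowest, and control 3 lay below C3a 1 and 2. The difference was -0.18 (SE 0.13, 95% interval -0.49 to 0.12; limma adjusted p = 0.743, exact permutation p = 0.3). It was -0.093 without control 2 and -0.10 without C3a 3.

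Xirp2 encodes a Xin-repeat protein (myomaxin) that binds actin and alpha-actinin at the Z-disc and the intercalated disc. Its log2 level was -1.59, -1.49 and -2.13 in controls and -2.76, -1.95 and -2.52 with C3a. Control 3 lay below C3a 2, and the other values were separated by group. The means were -1.74 ± 0.35 and -2.41 ± 0.42 (SD, n = 3), which is 1.60-fold lower with C3a, a log2 difference of -0.67 (SE 0.25, 95% interval -1.26 to -0.086). The unadjusted limma p was 0.0302, which was rank 821 of 23438 probes, the adjusted p was 0.743 and the exact permutation p was 0.2. The unadjusted p ranged from 0.00616 to 0.103 when single arrays were left out, and passed 0.05 after leaving out C3a 2 or control 3 only. Its probe lay far nearer to background than those of the other 6 genes, and the difference was -0.34 after normexp background correction.

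**Figure D2:**
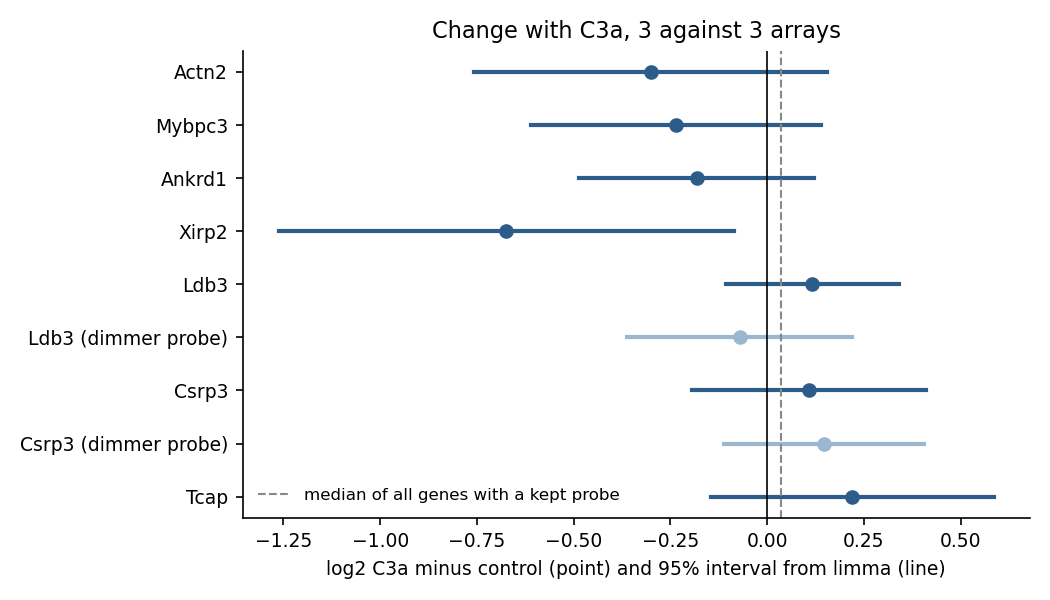
Log2 difference of C3a minus control for the 7 measured genes (horizontal axis) with its 95% interval from limma, the dimmer probes of Ldb3 and Csrp3 in pale blue and the median of all genes (0.036) dashed. Points of the brighter probes for Actn2, Mybpc3, Ankrd1 and Xirp2 lie below 0 and those for Ldb3, Csrp3 and Tcap above 0, and the interval of Xirp2 (-1.26 to -0.086) is the only one of the 7 that leaves out 0.

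Read against all genes, 1 of the 7, Xirp2, was lower at an unadjusted p of 0.05, where 2.42% of 10392 genes were lower and 2.91% higher. With the replicate block 2 of the 7 were lower, Actn2 and Xirp2 (unadjusted p = 0.00985, adjusted p = 0.246, limma), against a background of 6.04% lower and 5.8% higher. None of the 7 had groups without overlap, against 4.84% of genes with all C3a arrays below the controls and 8.15% with all above. Within pairs of equal number, 4 of the 7 were lower in every pair (Actn2, Mybpc3, Ankrd1 and Xirp2), a pattern of 15.1% of genes, and 2 were higher in every pair (Ldb3 and Tcap), a pattern of 23.5%. The C3a value of Csrp3 was higher in 2 of 3 pairs. The median difference of the 7 genes was -0.18, with 3 of 7 above 0, and that of all genes was 0.036, with 60.6% above 0. The median absolute difference was 0.220 for the 7 genes and 0.105 for all genes. The comparison genes were not matched to the 7 in detection. Of the 23438 kept probes, 23425 passed the filter through the C3a arrays and 17519 through the controls. Among the 17506 probes detected on all 6, unadjusted limma calls at 0.05 were 370 higher and 639 lower, against 783 and 581. Their median difference was 0.040, against 0.048 for all kept probes. The shares of genes were not recomputed for this smaller set.

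On the array the 7 genes held very different places. Ankrd1 ranked 133 of 16575 genes by control mean, Mybpc3 198, Csrp3 243, Tcap 491, Ldb3 518, Actn2 873 and Xirp2 8301. With C3a the ranks were 162, 242, 239, 458, 510, 1076 and 9053, so Csrp3 passed Mybpc3 and the other 5 kept their order. Averaged over the arrays, 99.1% of genes were dimmer than Ankrd1, 94.1% dimmer than Actn2 and 47.7% dimmer than Xirp2. Probe brightness also depends on the probe itself, so these ranks are no order of transcript number.

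The 7 genes were also set side by side across the 6 arrays, grouped by the sign of their difference with C3a, which itself enters each r. As a description, Pearson's r between Actn2, Mybpc3, Ankrd1 and Xirp2 was 0.76 to 0.97 over the 6 arrays (6 pairs of genes, median 0.87), highest for Actn2 with Ankrd1. Between Ldb3, Csrp3 and Tcap it was 0.53 to 0.90 (3 pairs, median 0.55), highest for Csrp3 and Tcap. Both of these genes had their lowest value on control 2. Across the groups r was -0.68 to 0.014 (12 pairs, median -0.34). These values share libraries, scaling and treatment, and the grouping by sign fixes part of the pattern.

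The difference between these groups of genes within an array does not depend on the scaling of that array. The mean log2 level of Actn2, Mybpc3, Ankrd1 and Xirp2 minus that of Ldb3, Csrp3 and Tcap was -1.62, -1.16 and -1.80 in controls and -2.19, -1.72 and -2.16 with C3a. C3a 1 and 3 were the lowest, and C3a 2 lay above control 3. The group means were -1.53 ± 0.33 and -2.02 ± 0.26 (SD, n = 3), a difference of -0.50 that is given as a description, since the signs chose the grouping.

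The 4 genes with lower means followed the brightness of the array. The 75th percentile of linear signal was 273, 367 and 269 on control arrays 1 to 3 and 230, 288 and 207 on C3a arrays 1 to 3. Over the 6 arrays the level of Actn2 had r = 0.95 to the log2 of this percentile, Ankrd1 0.93, Mybpc3 0.86 and Xirp2 0.85. The values for Ldb3, Csrp3 and Tcap were -0.44, -0.49 and -0.80. Among all genes 97.9% had a lower r than Actn2, 96.7% than Ankrd1, 93.0% than Mybpc3 and 92.4% than Xirp2. For Ldb3, Csrp3 and Tcap this share was 37.5%, 34.4% and 12.1%. Control 1, control 3 and C3a 2 had similar brightness (269 to 288), and among these C3a 2 lay between the controls for Actn2, Ankrd1 and Xirp2 and level with the higher control for Mybpc3. The part of brightness in the differences was not tested.

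**Figure D3:**
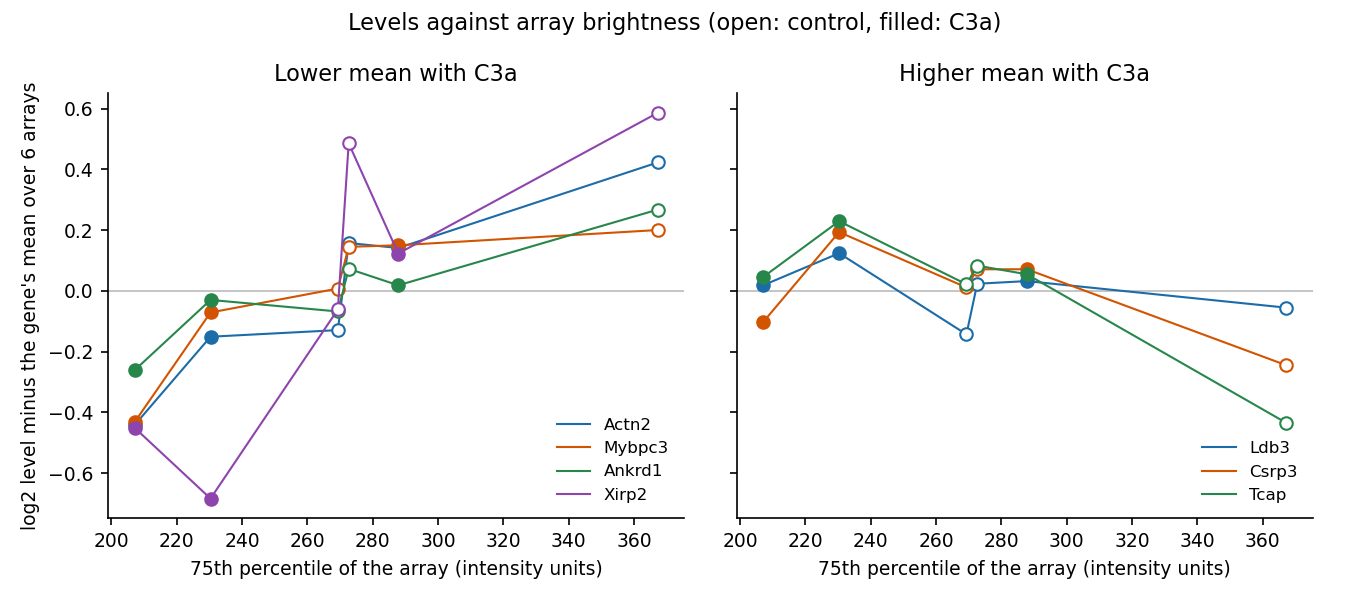
Log2 level of each of the 7 genes, centred on its own mean (vertical axis), against the 75th percentile of signal of the array (horizontal axis), with the control and C3a arrays marked. Levels of Actn2, Mybpc3, Ankrd1 and Xirp2 are higher on brighter arrays (r = 0.85 to 0.95, n = 6), and those of Ldb3, Csrp3 and Tcap are lower (r = -0.80 to -0.44).

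The mean centred level of the 7 genes was 0.15, 0.11 and -0.051 in controls and -0.055, 0.084 and -0.23 with C3a. The genes most like this profile among 8557 detected on all arrays were Usf2 (r = 0.995 over 6 arrays), Csnk2a2 (0.993), Fbxo6 (0.992), Dcps (0.991) and Tcea3 (0.991). Their own differences with C3a ran from -0.26 for Fbxo6 to -0.11 for Csnk2a2. Of the 7 genes, Mybpc3 (r = 0.96), Actn2 (0.92), Ankrd1 (0.87) and Xirp2 (0.81) followed the profile. Csrp3 (0.028), Ldb3 (-0.054) and Tcap (-0.34) did not, so the profile is mainly that of the genes with lower means. The genes named as most like it are the top of 8557 over 6 arrays, which is a description only.

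Neighbouring genes of the sarcomere, taken from fixed lists, showed no adjusted call either. In 5 lists, 57 different genes were measured well above background on all arrays of a group, and 0 of them had an unadjusted limma p below 0.05. With the replicate block 6 of 57 did, 4 lower and 2 higher, where 6.04% of all genes were lower and 5.8% higher, and none of these passed adjustment. Groups did not overlap in 5 of 57, 4 with C3a above and 1 below, where 8.15% of all genes lay above and 4.84% below. Both counts were near the shares of all genes.

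Among Z-disc scaffold genes 13 of 17 measured had a difference above 0 (median 0.050, range -0.19 to 0.37). The brightest was Cryab, a small heat shock protein that guards the Z-disc, at 9.54 in controls and 9.71 with C3a. The paralogues of Actn2 differed in sign: Actn4 lay above the controls on all C3a arrays (0.13, adjusted p = 0.749, limma) and Actn1 below them (-0.12, adjusted p = 0.746). Both encode non-muscle alpha-actinins and were picked out after their values were seen.

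Among M-band and titin-binding genes 3 of 11 measured had a difference above 0 (median -0.11, range -0.46 to 0.14). The brightest was Sqstm1, a cargo receptor of autophagy, with a difference of 0.065. Fhl2, a LIM protein that binds titin, read 3.05, 3.32 and 2.82 in controls and 2.62, 2.95 and 2.24 with C3a. Trim63, the ubiquitin ligase MuRF1, read 1.91, 2.39 and 1.74 and then 1.41, 1.83 and 1.46. In both genes each C3a value lay below its control of equal number but the groups overlapped, with unadjusted block p-values of 0.00348 and 0.00513 and adjusted limma p-values without the block of 0.743. The other 4 genes under 0.05 with the block were Itga7 (-0.29) and Hspb8 (-0.38), and, with higher means, Cavin4 (0.37) and Fbxo32 (0.23), with unadjusted block p-values of 0.0293, 0.00997, 0.0121 and 0.0417 in this order. Trim55 was the only M-band and titin-binding gene without overlap, and lay above the controls on all C3a arrays (0.14, adjusted p = 0.743, limma). Trim55 and these 6 genes were picked out after their values were seen.

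Stretch-sensing and costamere genes were above 0 in 10 of 16 (median 0.039, range -0.29 to 0.16), with Itgb1, the beta-1 integrin, the brightest (0.034). Genes of sarcomere assembly and upkeep were above 0 in 6 of 9 (median 0.018, range -0.38 to 0.23), with the small heat shock protein Hspb1 the brightest (0.14). Paralogues of the 10 genes were above 0 in 5 of 8 (median 0.036, range -0.20 to 0.13), with Pdlim5, a relative of Ldb3, the brightest (0.033). Of the skeletal muscle paralogues, picked out after their values were seen, Mybpc1 and Ankrd2 were not well above background on any array, Actn3 was on 1, Ankrd23 on 3 and Myoz1, a relative of Myoz2, on 5.

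**Figure D4:**
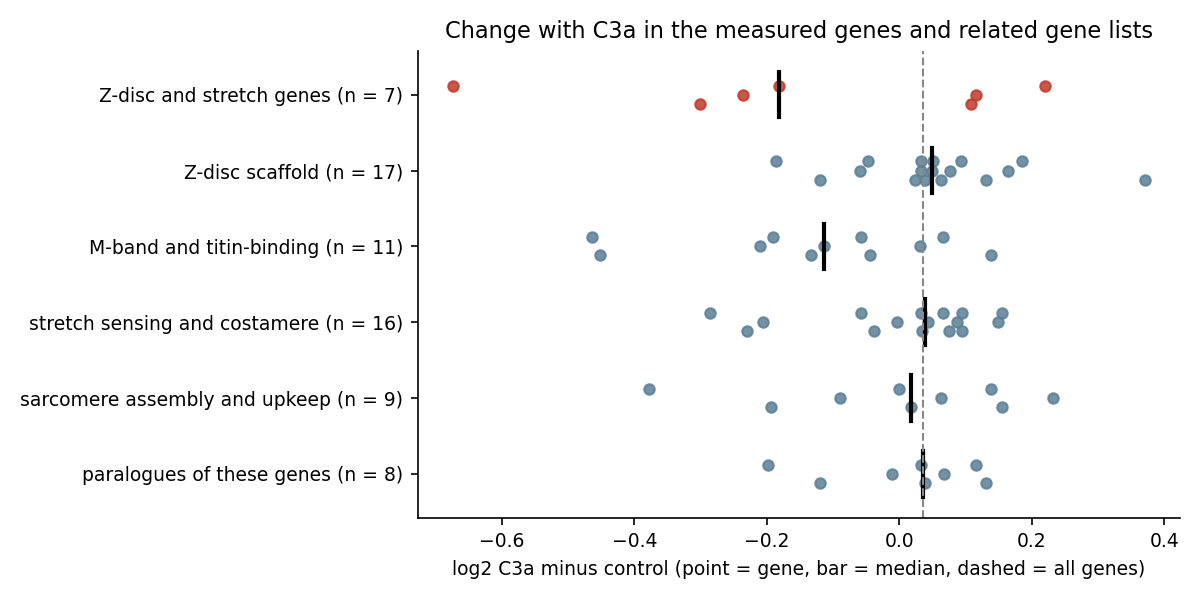
Log2 difference of C3a minus control (horizontal axis) for each measured gene of the 7 described genes and of the 5 related lists, with 1 point for each gene the median of each list as a bar and the median of all genes dashed. Medians are -0.18 for the 7 genes, -0.11 for M-band and titin-binding genes and between 0.018 and 0.050 for the other 4 lists.

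The size of each difference moved with the scaling of the arrays. The median difference of all kept probes was 0.048 with the 75th percentile, -0.28 without normalization and -0.40 with scaling to 7 spike-in probes. Without a filter on dim probes the median was -0.10, but over 45572 probes, and the differences of the 7 genes stayed the same. Measured from the median of the kept probes, the differences were -0.35 for Actn2, -0.28 for Mybpc3, -0.23 for Ankrd1 and -0.72 for Xirp2. They were 0.07 for Ldb3, 0.06 for Csrp3 and 0.17 for Tcap, and these values hold for every scaling by 1 number per array. Actn2, Mybpc3, Ankrd1 and Xirp2 kept a difference below 0 in the 16 alternatives that moved it, and the other 6, such as the replicate block or a filter, leave it as it is by construction. The 16 are not separate checks. Without normalization and with spike-in scaling all 7 genes were below 0, and loess gave the same values with and without the block. The lowest adjusted p-values of Actn2, Mybpc3, Ankrd1 and Xirp2 over the 22 alternatives were 0.238, 0.238, 0.306 and 0.246 (limma).

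**Figure D5:**
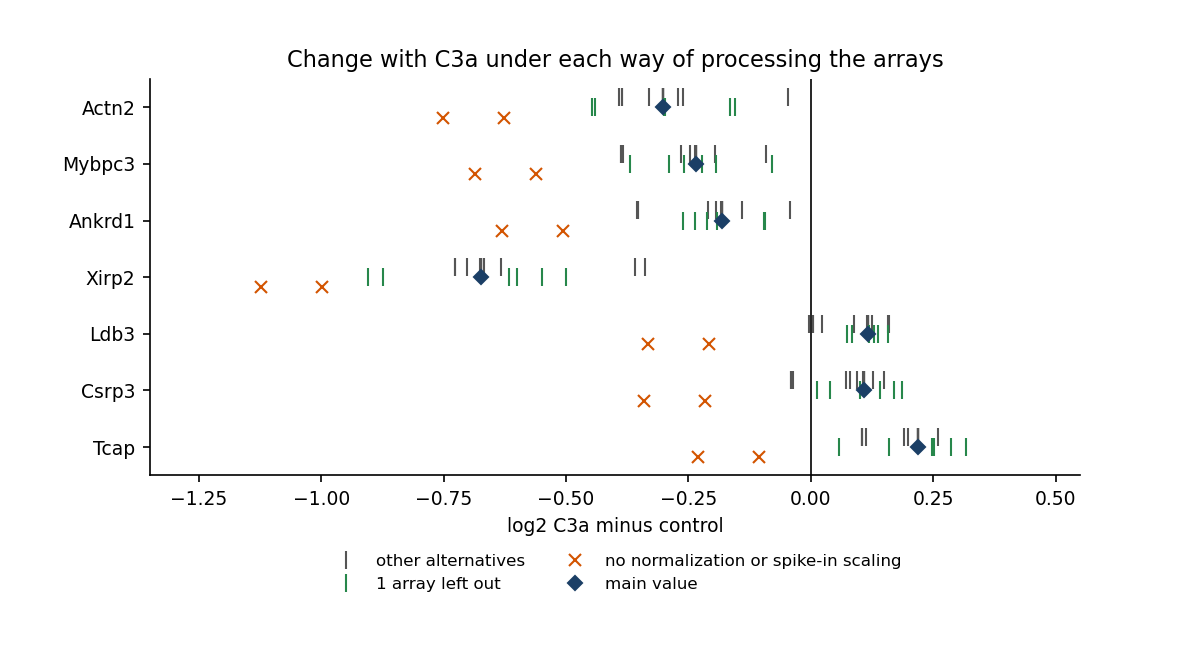
Log2 difference of C3a minus control (horizontal axis) for the 7 genes as reported (diamonds) and under 22 alternatives, with 1 mark for each, green where 1 array was left out and crosses for no normalization and spike-in scaling. Actn2 runs from -0.75 to -0.048 and Xirp2 from -1.12 to -0.34, while Ldb3, Csrp3 and Tcap lie on both sides of 0.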

How the data were processed

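Gene expression was measured in 3 control and 3 C3a-treated NRVC samples, each on a 1-colour (Cy3) Agilent rat array and grouped by the titles in the sample records. The authors deposited linear spot intensities from Feature Extraction 11.5.1.1 (version per the submitters' processing notes), background-subtracted and not normalized between arrays. They also deposited log2 values of 36638 probes. Set against the scanner values, these were scaled to the array's 75th percentile and not centred by gene, with a median deviation of at most 0.0062.

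Of 62976 spots, 4259 control spots and spots with an outlier flag were left out and spots of 1 probe were averaged. Log2 values were computed here relative to each array's 75th percentile. Kept were the 23438 of 45598 probes well above background (at least 50% of spots) on all arrays of a group. Accessions of 21092 probes (46.3%) matched the GRCr8 gene table. The array files name another assembly, so no gene coordinates are printed, and promoters are RefSeq GRCr8.

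Groups were compared with the moderated two-sided test of limma 3.58.1 (R 4.3.3) and Benjamini-Hochberg adjustment over kept probes, which was tested on simulated data. Exact permutation tests were two-sided. Deviations from group means of equal-numbered samples correlated at 0.28, 0.32 and 0.31, so the numbers were taken to pair the samples. Other pairs correlated at -0.26 to -0.093. Since each group was centred on its own mean, positive values for equal numbers make the others negative on average. The latter are therefore no separate evidence. The pairing rests on the data. The records hold the bare number, and it coincides with position along the slide. Named were all measured genes, from each list genes at an unadjusted p of 0.05 (none) and the brightest, the 5 genes of most like pattern, and markers not well above background; others are said to be picked later. The genes and lists were chosen with earlier results of these data known. Normexp (offset 50) used the median spot signal. Loess, with and without the block, and the within-array difference of gene groups were chosen after seeing the data. Figures were drawn with matplotlib 3.10.9.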

Additional observations from a re-analysis of the deposited data

How the results depend on the processing

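No gene of the 7 passed an adjusted p of 0.05 (limma) in any of 22 alternatives. The differences of Ldb3, Csrp3 and Tcap reversed to -0.21, -0.22 and -0.11 without normalization and to -0.33, -0.34 and -0.23 with spike-in scaling. Quantile normalization gave -0.0046 for Ldb3 and -0.037 for Csrp3, and loess gave -0.040 for Csrp3 with and without the replicate block. Loess also moved Ldb3 to 0.0047, Tcap to 0.10, Mybpc3 to -0.39 and Ankrd1 to -0.35. It gave -0.38 for Actn2 and -0.73 for Xirp2. With loess and the block together the unadjusted limma p-values were 0.00379 for Mybpc3, 0.0249 for Ankrd1, 0.00552 for Actn2 and 0.0132 for Xirp2. Adjusted p-values were 0.238, 0.306, 0.238 and 0.269 in this order. For Ldb3, Csrp3 and Tcap the unadjusted p-values were 0.256 to 0.962. In that setting 1839 of 23438 probes were lower and 1350 higher at an unadjusted p of 0.05. With loess alone the unadjusted limma p-values of Mybpc3, Ankrd1, Actn2 and Xirp2 were 0.0828, 0.106, 0.126 and 0.0355. With the block alone they were 0.0799, 0.0930, 0.0149 and 0.00985. Quantile normalization moved Tcap to 0.11, Mybpc3 to -0.38 and Ankrd1 to -0.36. The number of genes above 0 was then 0, 0 and 1 without normalization, with spike-in scaling and with quantile normalization, and the median was -0.51, -0.63 and -0.36, and -0.35 with loess with or without the block. Leaving out normalization or scaling to spike-ins shifts the differences of all probes by the same amount. Measured from the all-probe median, Ldb3, Csrp3 and Tcap stayed at 0.07, 0.06 and 0.17 in both settings. The cause of the moves with quantile normalization and loess was not tested.

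Unadjusted calls over all probes (783 higher, 581 lower) became 1832 and 1366 under the replicate block, 1350 and 1839 when loess was added to it, 41 and 2558 without normalization, and 9 and 1702 with spike-in scaling. Higher calls were 359 without the filter and 370 with probes detected on all 6 arrays. In the same order, lower calls were 676 and 639. Lower calls were 268 with median scaling, 356 with the test of the methods and 356 with normexp. Adjusted calls appeared with spike-in scaling (1 higher, 15 lower) and without normalization (4 lower). The replicate block changed no adjusted call.

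Leaving out 1 array gave 441 to 1263 higher and 268 to 876 lower unadjusted calls and 0 adjusted, with 441 and 268 without C3a 3, 1263 and 876 without control 3, and 291 lower without C3a 1. It gave -0.45 to -0.16 for Actn2, 0.074 to 0.16 for Ldb3, 0.013 to 0.19 for Csrp3, 0.058 to 0.32 for Tcap, -0.37 to -0.078 for Mybpc3, -0.26 to -0.093 for Ankrd1, -0.90 to -0.50 for Xirp2 and -0.26 to -0.078 for the median, with 3 genes above 0 each time. Array weights brought Actn2 to -0.048, Mybpc3 to -0.091, Ankrd1 and the median to -0.043, Tcap to 0.11 and Xirp2 to -0.36, where the unadjusted limma p-value of Xirp2 was 0.193 and the adjusted p-value 0.932. Slide and scan could not enter as a block, since all arrays share both. The dim signal of Xirp2 limits its value, which was -0.34 with normexp against -0.67.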
